A study of Mus musculus with 13 samples.

Results

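The genes described here make, place and read out the programmed DNA double-strand breaks of meiosis. They are 8 genes out of the 55335 in the deposited count table, chosen by name and not by their values: *Spo11*, *Mei1*, *Mei4*, *Rec114* and *Ankrd31*, which are needed to make breaks or to place them, and *Prdm9*, *Zcwpw1* and *Hells*, which mark, read or open the sites where breaks are made. All 8 were found by matching the table's gene identifiers to GENCODE M21 symbols, and all 8 had enough counts to be tested. The libraries came from OCT4-GFP positive germ cells, sorted from both ovaries of a single female mouse embryo at E17.5, and were made by 3' Tag-Seq, which reads mainly the 3' ends of polyadenylated transcripts. They ask whether loss of the glucocorticoid receptor (GR, encoded by *Nr3c1*) in the embryo or in its germ cells changes germ cell transcripts.

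The 13 libraries fall into 4 groups, and every embryo carried the *Pou5f1*-GFP reporter, labelled Tg(Pou5f1-EGFP)2Mnn. WT (n = 3) and KO (n = 3) embryos came from crosses between *Nr3c1* KO/+ parents, and the KO embryos lacked exon 3 of *Nr3c1* on both alleles in all cells. The conditional embryos were homozygous for the floxed exon 3 allele, labelled Nr3c1tm1.1Jda. Those with the tamoxifen-inducible Cre allele Pou5f1tm1.1(cre/Esr1*)Yseg are the cKO group (n = 4), and their controls are the floxed embryos labelled as controls, for which the study's methods name the floxed alleles but no Cre allele (flox, n = 3), although the strain label of the flox libraries lists the Cre allele as well. All conditional embryos, flox included, were exposed in utero to tamoxifen, given to the dams at 125 μg / g at E10.5, whereas no tamoxifen is described for the constitutive crosses. Cre is driven by *Pou5f1*, so deletion in cKO embryos was limited to cells that expressed it at the time of tamoxifen, and the share of germ cells that recombined is not given. No litter is given for any embryo, so the replicates are embryos whose sharing of a dam is unknown.

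As background, meiotic recombination starts with breaks made by SPO11, a relative of the DNA-cutting subunit of a topoisomerase. SPO11 works with MEI1 and with a complex on the chromosome axes that holds MEI4 and REC114, and ANKRD31, a partner of REC114, shapes where that complex gathers. In the mouse, PRDM9 chooses most of the sites: its zinc fingers bind a DNA motif and its methyltransferase domain adds methyl groups to lysines 4 and 36 of histone H3 nearby, a double mark that ZCWPW1 recognises, while HELLS, a chromatin remodelling enzyme, works with PRDM9 to open the site. In females these breaks are made and repaired in the fetal ovary, before oocytes arrest.

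The reference promoters of the genes that the comparisons below turn on are shown here because GR is a DNA-binding transcription factor. Promoter windows of 300 bases, from 250 bases before a start site to 50 after it, were read from RefSeq on GRCm38.p6, and 7 of the 8 genes have at least 1 window (9 windows in all). *Spo11* has none in that set. The windows below are those of *Prdm9* (chr17:15564305-15564604, minus strand), *Mei4* (chr9:81863420-81863719, plus strand) and *Mei1* (chr15:82082226-82082525, plus strand), the genes whose levels did not overlap between cKO and flox embryos, and of *Hells* (chr19:38930740-38931039, plus strand), the gene measured with the smallest error. *Prdm9* has another RefSeq window, at a start site 1023 bp inside the annotated gene (chr17:15563282-15563581), which held no match to any motif searched and is not shown. The only *Mei1* window belongs to a start site 12480 bp inside the annotated gene, not to the 5' end of the annotated interval. Capitals mark the motif matches described next, and each sequence runs 5' to 3' on the strand of the gene.
Prdm9: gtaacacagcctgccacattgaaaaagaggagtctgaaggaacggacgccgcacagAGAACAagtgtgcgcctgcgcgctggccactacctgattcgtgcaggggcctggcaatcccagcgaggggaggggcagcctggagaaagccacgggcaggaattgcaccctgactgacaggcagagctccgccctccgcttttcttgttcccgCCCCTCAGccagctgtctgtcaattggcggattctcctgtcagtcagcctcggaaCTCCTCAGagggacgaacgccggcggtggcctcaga
Mei4: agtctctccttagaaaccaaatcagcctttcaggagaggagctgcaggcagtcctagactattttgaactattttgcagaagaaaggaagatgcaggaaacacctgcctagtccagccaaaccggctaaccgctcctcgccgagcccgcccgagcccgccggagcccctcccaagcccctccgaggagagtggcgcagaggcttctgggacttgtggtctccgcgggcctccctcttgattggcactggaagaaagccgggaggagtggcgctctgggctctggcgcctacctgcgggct
Mei1: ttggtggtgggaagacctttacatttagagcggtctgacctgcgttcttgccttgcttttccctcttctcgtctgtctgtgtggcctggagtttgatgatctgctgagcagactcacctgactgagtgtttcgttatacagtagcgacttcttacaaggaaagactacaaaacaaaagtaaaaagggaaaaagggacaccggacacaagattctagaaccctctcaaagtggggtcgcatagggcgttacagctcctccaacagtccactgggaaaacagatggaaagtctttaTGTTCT
Hells: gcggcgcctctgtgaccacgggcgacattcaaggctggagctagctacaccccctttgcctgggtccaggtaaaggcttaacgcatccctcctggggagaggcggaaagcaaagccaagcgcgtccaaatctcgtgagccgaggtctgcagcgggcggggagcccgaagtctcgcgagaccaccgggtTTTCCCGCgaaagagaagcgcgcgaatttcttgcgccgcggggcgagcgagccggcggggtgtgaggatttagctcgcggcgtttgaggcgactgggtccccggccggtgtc

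The full palindrome bound by a GR dimer was searched as AGAACA, any 3 bases, and the reverse complement TGTTCT, and was in 0 of the 9 windows and in 0.00913% of the 32851 promoter windows of all genes. One arm of it, AGAACA on either strand, was in 2 of the 9 windows, and in 19.0% of all promoter windows. In the *Prdm9* window shown it lies at −194 to −189 from the start site, and in *Mei1* it is the reverse complement TGTTCT at 45 to 50 after the internal start site. The motif CNCCTCAG, which is bound by STRA8, the inducer of the meiotic gene program, occurred in 7.94% of all windows and, among the 9, only in the *Prdm9* window shown. There it was found as CCCCTCAG at −41 to −34 and as CTCCTCAG at 15 to 22. Of the E2F motif forms, TTTCCCGC was in the *Hells* window at −62 to −55 and, on the other strand, in the *Rec114* window, whose start site is 2405 bp inside the annotated gene, against 1.07% of all windows, and TTTGGCGC was in none of the 9, against 0.514%. The *Mei4* window held none of these motifs. These are matches of letters in reference DNA, and the counts do not show whether a factor was bound. The full palindrome is so rare in this exact form that its absence from 9 windows says nothing about these genes. Inexact forms of it and DNA outside the windows were not searched.

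Gene counts summed to 2048706 to 3674989 per library, so that 1 count is worth 0.272 to 0.486 CPM (counts scaled by the library total and a TMM factor, which corrects for composition). The libraries held oocyte transcripts: 10 markers of fetal oocytes summed to 13804 to 22932 CPM in each library (marker sums leave out the TMM factor). By contrast, 15 markers of ovarian somatic cells summed to 122 to 400 CPM (in WT 122 to 195, in KO 125 to 159, in flox 162 to 319 and in cKO 211 to 400). The highest medians in the somatic sum were those of *Nr2f2* (46.8 CPM), *Col1a1* (44.1 CPM) and *Col3a1* (25.9 CPM). *Foxl2* and *Wnt4* had medians of 3.90 and 0.746 CPM. The sums were 0.403 to 1263 CPM for erythroid markers, 0 to 67.3 CPM for macrophage markers and 1.92 to 82.7 CPM for endothelial markers. The zeros of some markers may not reflect expression, and their cause was not tested. *Sycp3*, which encodes a protein of the meiotic chromosome axis, had 0 counts in all 13 libraries, whereas its partners *Sycp1*, *Sycp2* and *Syce3* had at least 7212, 1226 and 441 counts in each. *Alas2*, an erythroid marker, also had 0 in all. Of the other 4 genes of entry into meiotic prophase, which together summed to 145 to 326 CPM, *Stra8* had 0 counts in 8 libraries and *Rec8* in 9. The targeted gene *Nr3c1* was at 44.6 ± 14.8 CPM in WT and 44.6 ± 25.3 CPM in KO (SD, n = 3 each), and at 65.8 ± 33.3 CPM in flox (SD, n = 3) and 52.6 ± 18 CPM in cKO (SD, n = 4). These counts cover the whole gene and not exon 3 alone, so they do not check its deletion. In sorted cells, fewer cells that express a gene and less RNA per cell cannot be told apart.

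Where the genes lie matters for how they were counted. The length column of the table equals the whole gene interval for all 55335 genes, so reads in introns are included, and exons make up from 1.20% of the interval of *Mei4* (chromosome 9 of mm10, 81863670 to 82206007, plus strand, 342338 bp) to 24.7% of that of *Spo11* (chromosome 2, 172977700 to 172993576, plus strand). The 3' end of *Rec114* (chromosome 9, 58652850 to 58743964, minus strand) lies inside *Nptn* on the opposite strand, and all of its last 1000 bp (100%) are overlapped by that gene, which had 4583 counts over the 13 libraries. For *Zcwpw1* (chromosome 5, 137787798 to 137822621, plus strand), *Pilra* on the opposite strand overlaps 67.0% of the last 1000 bp, but had 1 count over the 13 libraries. The strand setting and the treatment of reads that touch more than 1 gene are not given in the sources used here. The smaller annotated genes inside *Prdm9*, *Mei4*, *Rec114* and *Ankrd31* all had 0 counts. The last 1000 bp of the other 6 genes are overlapped by no gene: *Prdm9* (chromosome 17, 15543079 to 15564354, minus strand), *Mei1* (chromosome 15, 82069996 to 82126814, plus strand), *Ankrd31* (chromosome 13, 96748272 to 96910039, plus strand) and *Hells* (chromosome 19, 38930915 to 38971051, plus strand), besides *Spo11* and *Mei4*.

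In the constitutive model, 0 of the 8 genes were called by edgeR's quasi-likelihood test at an adjusted p-value ≤0.05, and 0 had an unadjusted p-value under 0.05. Over all 13086 genes tested, 0.0% were called and 5.82% had an unadjusted p-value under 0.05. DESeq2's Wald test and limma's voom also called 0 of the 8, and only *Mei4* in DESeq2 had an unadjusted p-value under 0.05. KO and WT embryos overlapped for all 8 genes, where 9.46% of all genes tested did not overlap. Values below 0 on the log2 scale were found for 5 of the 8, against 51.9% of all genes, and its median was −0.28 against −0.03 over all genes tested. Summed macrophage markers were higher in the KO libraries (8.58 to 67.3 CPM, against 0 to 0.454 CPM in WT). Of these, *C1qc* reached 60.0 CPM but had 0 counts in 12 libraries. Summed endothelial markers were lower in KO (1.92 to 26.1 CPM, against 30.0 to 41.9 CPM). *Pecam1* carried most of that sum (median 34.9 CPM over the 13 libraries, against 41.9 CPM for the sum). *Cdh5*, *Kdr*, *Tie1* and *Esam* had 0 counts in 5, 8, 10 and 10 libraries, so the sum largely follows 1 gene. The part of either sum in the values of the 8 genes was not tested.

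In the conditional model, 0 of the 8 genes were called, 0 had an unadjusted p-value under 0.05 in edgeR's test (3.19% of all genes tested had, and 0.0% were called), and only *Prdm9* had one with voom. DESeq2 and voom called 0 as well. However, 3 of the 8 genes had cKO levels that did not overlap those of flox embryos, where 4.97% of all genes tested did not overlap. *Prdm9* and *Mei1* were lower in every cKO embryo (every cKO embryo was lower for 2.79% of all genes) and *Mei4* was higher in every cKO embryo (2.18% of all genes). The gaps between the groups were narrow, as the values below show. The same groups were also separated by the erythroid markers, which summed to 1263, 397 and 284 CPM in flox embryos and to 180, 78.4, 178 and 199 CPM in cKO embryos, and their part in these values was not tested. Values below 0 on the log2 scale were found for 5 of the 8 genes and for 50.7% of all genes tested, with a median of −0.32, against −0.01 over all genes tested.

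**Figure D1:**
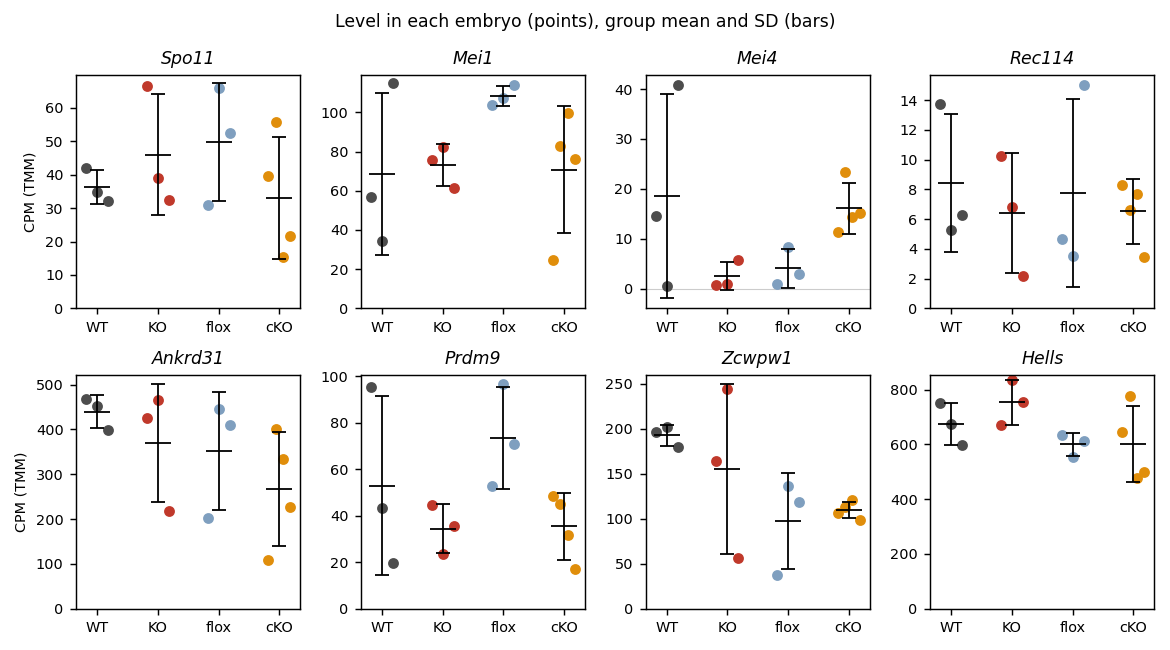
Each point is the level of a gene (CPM, linear vertical axis) in 1 of 13 embryos, by group (horizontal axis), with horizontal lines for the group mean and bars for 1 SD. *Prdm9*, *Mei1* and *Mei4* do not overlap between flox and cKO, and no gene separates WT from KO.

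*Prdm9*, the methyltransferase that chooses the sites, was at 95.1, 43.5 and 19.8 CPM in the WT embryos (215, 91 and 73 counts) and at 44.5, 23.3 and 35.6 CPM in the KO embryos. The WT embryos ran from below the lowest KO embryo to above the highest. In the conditional model, it was at 52.8, 96.4 and 70.8 CPM in flox embryos and at 48.5, 44.9, 31.6 and 16.9 CPM in cKO embryos (49 to 140 counts). The highest cKO embryo was thus just under the lowest flox embryo. The log2 fold change was −1.05 in cKO (standard error 0.53, 95% confidence interval −2.15 to 0.05, adjusted p = 0.9998 by edgeR), and −0.61 in KO (standard error 0.58, −1.80 to 0.58, adjusted p = 0.998). By exact permutation of the embryos, two-sided, p was 0.0571 for cKO against flox, where 4 embryos against 3 allow no p under 0.0286, and 0.7 for KO against WT, where 3 against 3 allow no p under 0.1. The sign in KO rested on WT replicate 1, since the log2 fold change was 0.15 without it.

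Averaged over both models, *Prdm9* was the only one of the 8 genes with an unadjusted p-value under 0.05 in edgeR's test. Of all genes tested, 5.34% had one (3.06% as lower genes) and 0.0% were called. In the average, 7 of the 8 genes had a log2 fold change below 0, against 52.7% of all genes tested. Of these 7, only *Prdm9* and *Ankrd31* stayed below 0 whichever library was left out. For *Prdm9* the average log2 fold change was −0.83 (95% confidence interval −1.64 to −0.01, standard error 0.39; unadjusted p = 0.0462, adjusted p = 0.899 by edgeR). It was −0.45 without WT replicate 1 (unadjusted p = 0.284 by edgeR). With all libraries, the unadjusted p for *Prdm9* was 0.0415 by DESeq2's Wald test but 0.134 by limma's voom. This average uses the same libraries as the separate comparisons and adds no evidence to them. The difference between the effects in the 2 models was −0.44 on the log2 scale (standard error 0.79, 95% confidence interval −2.06 to 1.19, adjusted p = 0.9999 by edgeR).

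*Mei4*, a subunit of the axis complex that SPO11 needs, had the widest spread. It was at 14.6, 0.478 and 40.8 CPM in WT embryos, which rest on 33, 1 and 150 counts, and at 0.760, 0.972 and 5.72 CPM in KO embryos, on 2, 2 and 13 counts. The WT embryo with 1 count was below every KO embryo, and the other 2 WT embryos were above them. In the conditional model the order was the opposite, with 0.845, 8.44 and 2.91 CPM in flox embryos (2, 19 and 6 counts) and 11.4, 23.4, 14.3 and 15.2 CPM in cKO embryos (33, 60, 39 and 44 counts). Every cKO embryo was above every flox embryo, which gave p = 0.0286 by two-sided exact permutation, the lowest value possible with these numbers. The log2 fold change was −2.89 in KO (standard error 1.43, unadjusted p = 0.0550, adjusted p = 0.847 from edgeR's test). It was 1.97 in cKO (standard error 1.33, unadjusted p = 0.150, adjusted p = 0.9998 from edgeR's test).

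The difference between the effects on *Mei4* in the 2 models was 4.86 on the log2 scale (standard error 1.95, 95% confidence interval 0.83 to 8.89). Its unadjusted p was 0.0201 and its adjusted p was 0.9999 by edgeR, so the difference was not called; 4.39% of all genes tested had an unadjusted p-value under 0.05 (2.46% with a positive difference) and 0.0% were called. Without WT replicate 3, the highest embryo, the log2 fold change in KO was −1.58, and it was −4.36 without KO replicate 3. In cKO it ranged from 1.5 without flox replicate 1 to 3.07 without flox replicate 2. WT replicate 1 lay within the cKO range, and the flox and KO embryos lay together at 0.760 to 8.44 CPM. The biological coefficient of variation fitted to *Mei4* was 1.05, against 0.263 for *Hells* and a common value of 0.841 over all genes.

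*Mei1*, another gene that break formation requires, was at 56.6, 34.4 and 115 CPM in WT embryos and at 75.6, 82.2 and 61.6 CPM in KO embryos. The KO embryos lay within the WT range. In flox embryos it was at 104, 107 and 114 CPM, the lowest coefficient of variation of any group of the 8 genes (4.72%, n = 3), and in cKO embryos at 24.6, 82.8, 99.5 and 76.3 CPM. All 4 cKO embryos were lower than the flox embryos, with cKO replicate 1 far below the others (p = 0.0857 by two-sided exact permutation). In cKO the log2 fold change was −0.61 (standard error 0.44, 95% confidence interval −1.52 to 0.29, adjusted p = 0.9998 from edgeR's test), and −0.31 without cKO replicate 1. The flox embryos were close to the highest WT embryo, and 3 of the 4 cKO embryos lay within the WT range.

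*Spo11*, which makes the break itself, was at 32.1 to 42.0 CPM in WT, 32.5 to 66.5 CPM in KO, 30.9 to 65.8 CPM in flox and 15.4 to 55.8 CPM in cKO embryos, with 42 to 175 counts per library. All groups overlapped. On the log2 scale the change was 0.34 in KO (95% confidence interval −0.85 to 1.54) and −0.58 in cKO (−1.69 to 0.52), so a 2-fold rise in KO and a 2-fold fall in cKO lay within the intervals. Without KO replicate 1 the value for KO was −0.01.

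*Rec114*, the partner of MEI4, had the fewest counts of the 8 genes, 5 to 31 per library, and its annotated 3' end is the one shared with *Nptn*. Its level was 5.26 to 13.7 CPM in WT, 2.20 to 10.3 CPM in KO, 3.55 to 15.0 CPM in flox and 3.45 to 8.31 CPM in cKO embryos. The intervals of its log2 fold changes were too wide to tell a rise from a fall at this depth, from −3.25 to 2.49 in KO and from −2.92 to 2.43 in cKO. The sign turned in both models with 1 library left out. In KO the value went from −0.38 to 0.17 without WT replicate 1, and to 0.03 without KO replicate 3. In cKO it went from −0.24 to 0.67 without flox replicate 3.

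*Ankrd31*, which binds REC114 and shapes where breaks are made, was at 468, 452 and 398 CPM in WT embryos and at 425, 466 and 219 CPM in KO embryos. It was at 202, 445 and 409 CPM in flox embryos and at 108, 400, 334 and 227 CPM in cKO embryos. The lowest embryo of each of KO, flox and cKO was far below the lowest WT embryo, while the 3 WT embryos stayed together (SD 36.3 CPM, n = 3). On the log2 scale the change was −0.25 in KO (standard error 0.39) and −0.40 in cKO (standard error 0.36), with adjusted p-values of 1 and 0.9998 from edgeR's test. Without KO replicate 3 the value for KO was 0.03, so its sign came from that embryo.

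*Zcwpw1*, the reader of the double histone mark, was at 196, 203 and 180 CPM in WT embryos and at 164, 245 and 56.3 CPM in KO embryos. In the conditional crosses it was at 37.2, 137 and 119 CPM in flox embryos and at 107, 113, 120 and 98.7 CPM in cKO embryos. KO differed from WT by −0.32 on the log2 scale (standard error 0.44) and cKO from flox by 0.17 (standard error 0.41), with groups that overlapped in both. Its sign in KO turned without KO replicate 3 (0.09), and in cKO without flox replicate 1 (−0.22), the embryos with the lowest level in each cross.

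*Hells*, the remodelling enzyme, was measured most precisely, with 1246 to 2199 counts per library. Its level was 752, 673 and 598 CPM in WT, 670, 835 and 754 CPM in KO, 633, 554 and 613 CPM in flox and 646, 776, 478 and 500 CPM in cKO embryos. The flox embryos lay within the cKO range, and the KO and WT embryos overlapped. In KO the log2 fold change was 0.16 (95% confidence interval −0.37 to 0.69) and in cKO 0.00 (−0.50 to 0.50). In both models, *Hells* was the only one of the 8 genes whose 95% confidence interval stayed inside a 2-fold change either way. Such narrow intervals were found for 11.4% of all genes tested in KO and 14.9% in cKO.

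**Figure D2:**
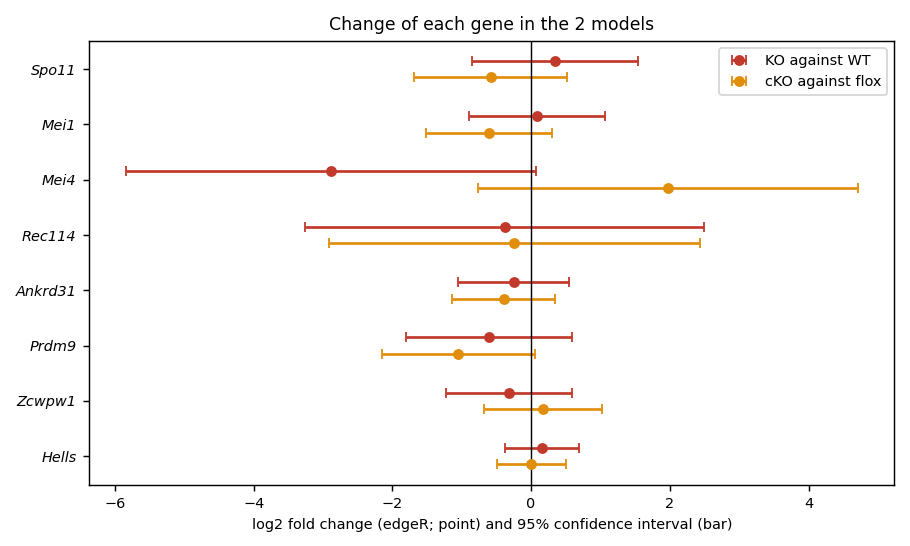
The horizontal axis is the log2 fold change of each gene (rows) from edgeR's fit of all 13 libraries, for KO against WT (red) and cKO against flox (orange), with 95% confidence intervals as bars. Every interval includes 0, the *Mei4* points lie on opposite sides of 0, and the *Hells* intervals are the narrowest.

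**Figure D3:**
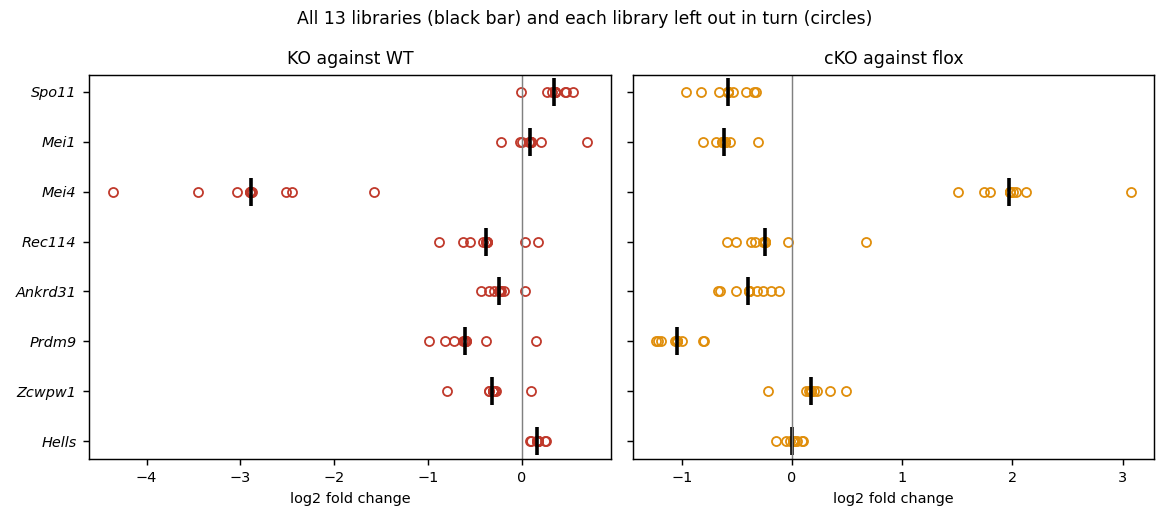
Black bars mark the log2 fold change (horizontal axis) of each gene (rows) with all 13 libraries, and each circle is the value with 1 library left out. In cKO against flox (right), *Prdm9*, *Spo11*, *Mei1*, *Mei4* and *Ankrd31* keep their sign in the 7 fits that leave out a cKO or flox library, and in KO against WT (left) only *Mei4* and *Hells* do in the 6 that leave out a KO or WT library; the other circles leave out a library of neither group and lie close to the bar.

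The level of each gene was also compared between the conditional and the constitutive crosses, which differ in alleles and tamoxifen and whose handling in time is not given, so these cannot be told apart. Of the 8 genes 0 were called by edgeR's test, DESeq2 or voom (0.00764% of all genes tested, or 1 gene, was called by edgeR's test). *Zcwpw1* alone had an unadjusted p-value under 0.05, where 5.59% of all genes tested had (2.19% lower). It was at 37.2 to 137 CPM (median 113) in the 7 conditional embryos and at 56.3 to 245 CPM (median 188) in the 6 constitutive embryos. All constitutive embryos but KO replicate 3 were above all conditional embryos. Between the crosses it differed by −0.74 on the log2 scale (95% confidence interval −1.36 to −0.12, standard error 0.30; unadjusted p = 0.0214, adjusted p = 0.838 by edgeR). It was −0.49 without KO replicate 2. The summed markers of somatic cells, led by *Nr2f2*, *Col1a1* and *Col3a1*, ran the other way. They were at 122 to 195 CPM in WT and 125 to 159 CPM in KO, against 162 to 319 CPM in flox and 211 to 400 CPM in cKO. The endothelial sum, carried mostly by *Pecam1*, ran that way too, at 1.92 to 41.9 CPM in the constitutive and 40.4 to 82.7 CPM in the conditional embryos. The part of either in the result was not tested.

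Ranked by mean CPM from high to low, the order of groups was flox, WT, cKO and KO for *Prdm9*, flox, KO, WT and cKO for *Spo11*, flox, KO, cKO and WT for *Mei1*, and WT, cKO, flox and KO for *Mei4*. It was WT, flox, cKO and KO for *Rec114*, WT, KO, flox and cKO for *Ankrd31*, WT, KO, cKO and flox for *Zcwpw1*, and KO, WT, cKO and flox for *Hells*. Of the 24 pairs of neighbours in these orders, 22 overlapped in range. The exceptions were flox and KO for *Mei1* (flox embryos at 104 CPM or more, KO embryos at 82.2 CPM or less), which come from different crosses, and cKO and flox for *Mei4*.

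Across the 13 embryos, the 8 genes did not vary as a unit. Of the 28 pairs, 17 had a Pearson correlation of log2 CPM above 0, from −0.30 to 0.66, with a median of 0.15. The pair with the highest correlation was *Ankrd31* and *Zcwpw1* (Pearson r = 0.66, permutation p = 0.0177; Spearman rho = 0.86, permutation p = 0.00029; n = 13). In a family of 60 relations, the 28 pairs and the 8 genes against 4 marker sums, the adjusted values were 0.323 for r and 0.0174 for rho. Leaving out the 2 embryos with the most extreme *Ankrd31* levels gave r = 0.84. Within the crosses, r was 0.98 over 6 constitutive embryos and 0.40 over 7 conditional embryos, and rho was 0.77 and 0.79. KO replicate 3 and flox replicate 1 were low for both genes, while cKO replicate 1 was low for *Ankrd31* only. The values of a pair share a library and its depth.

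**Figure D4:**
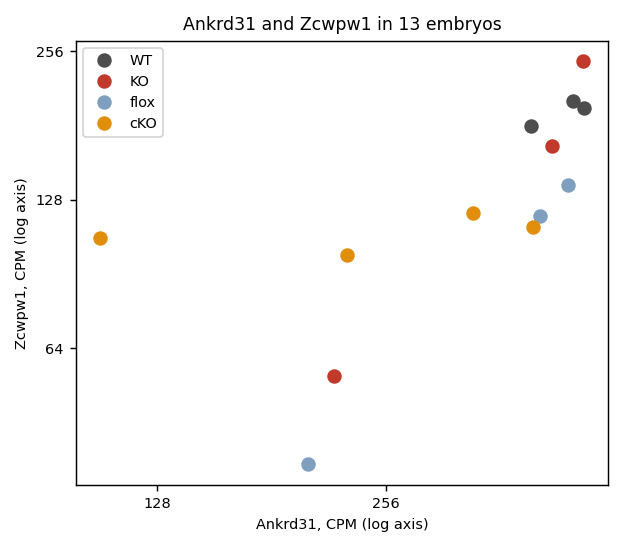
Each point is 1 of 13 embryos, with the level of *Ankrd31* on the horizontal and of *Zcwpw1* on the vertical axis (CPM, log axes), coloured by group. The WT embryos cluster at high levels of both, KO replicate 3 and flox replicate 1 are low for both, and cKO replicate 1 is at 108 CPM for *Ankrd31* with a *Zcwpw1* level like that of the other cKO embryos.

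Among the 7175 genes averaging 50 counts or more, those whose log2 CPM followed *Prdm9* most closely over the 13 libraries were *Zkscan2* (Pearson r = 0.84), *Mapkap1* (0.82) and *Dhrs7b* (0.80). For *Zcwpw1* they were *Cul2* (0.91), *Polr1a* (0.91) and *Dclre1a* (0.88). Their counts per library ran from 36 to 523 for *Cul2*, 4 to 305 for *Polr1a* and 0 to 252 for *Dclre1a*. The last 2 correlations thus include libraries at or near 0 counts. *Cul2* encodes a ubiquitin ligase scaffold and *Polr1a* the large subunit of RNA polymerase I. These are descriptions of 13 libraries, taken as the highest of many correlations.

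The wider pathway was measured with 20 further genes, of which 19 were in the table and tested and *Zcwpw2* had no match by symbol. In both models, 0 of the 19 were called by edgeR's test. In KO against WT 1 of the 19 (5.26%) had an unadjusted p-value under 0.05, close to the 5.82% of all genes tested, and in cKO against flox 0 had, against 3.19%. Values were above 0 on the log2 scale for 12 and below 0 for 7 in KO (median 0.07), and above 0 for 8 and below 0 for 11 in cKO (median −0.07), so that 36.8% and 57.9% were below 0, against 51.9% and 50.7% of all genes tested. Of the partners that make breaks, *Ccdc36*, which encodes the axis protein IHO1, had 0 to 30 counts per library, and *Gm960*, which encodes the TOPOVIBL partner of SPO11, had 0 to 76. Both were too sparse for a useful interval. *Hormad1*, the axis protein that recruits the break complex, had 89 to 694 counts and log2 fold changes of 0.38 (standard error 0.40) in KO and 0.35 (0.38) in cKO. *Trip13*, the enzyme that removes HORMAD proteins from the axes, was at 0.46 (0.47) and −0.13 (0.43).

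The 1 gene with an unadjusted p-value under 0.05 in KO, a count no higher than the background share gives, was *Atm*, the kinase that breaks activate and that limits further breaks. It was at 163, 407 and 140 CPM in WT embryos and at 105, 148 and 66.4 CPM in KO embryos, and at 151, 166 and 180 CPM in flox and 161, 192, 97.7 and 128 CPM in cKO embryos. The WT and KO embryos overlapped, since KO replicate 2 was above WT replicate 3. The log2 fold change in KO was −1.15 (standard error 0.40, unadjusted p = 0.00801, adjusted p = 0.847 from edgeR's test), and without WT replicate 2, the highest embryo, it was −0.50 (unadjusted p = 0.206). In cKO it was −0.19 (standard error 0.37). Of the end-processing genes, *Rad50*, with 875 to 2453 counts, gave the narrowest errors, at 0.18 (standard error 0.30) in KO and −0.02 (0.29) in cKO, followed in KO by *Rbbp8*, which starts resection, at −0.16 (0.33). The PRDM9 partners *Ewsr1*, *Cxxc1*, *Cdyl* and *Ehmt2* were between −0.43 and 0.75 on the log2 scale in both models, and *Cdca7* and *Cdca7l*, which encode the HELLS partner CDCA7 and its relative, had 0 to 76 counts.

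**Figure D5:**
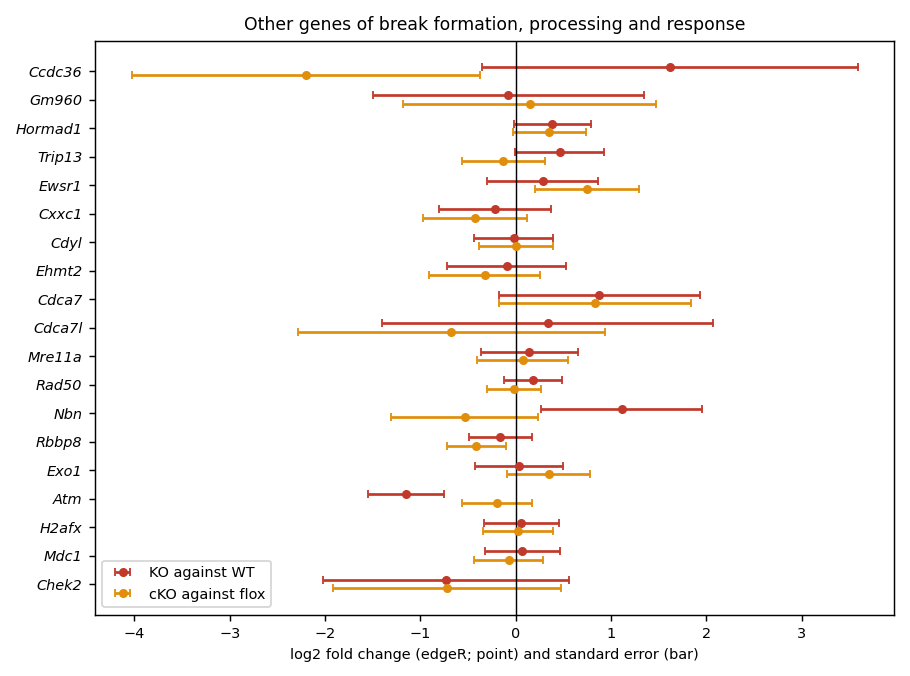
The horizontal axis is the log2 fold change of 19 further pathway genes (rows) for KO against WT (red) and cKO against flox (orange), with standard errors as bars. *Atm* in KO, at −1.15, is the only gene with an unadjusted p-value under 0.05, and *Ccdc36*, *Gm960*, *Cdca7l* and *Chek2* have the widest bars.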

How the data were processed

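The authors trimmed 3' Tag-Seq reads with cutadapt, aligned them to mm10 with STAR 2.6.0 and counted them per gene with featureCounts 1.6.3. They deposited these raw counts for 13 libraries, with no normalization and 1 column per embryo; annotation release and strand setting are not given in the sources used here. They also deposited fold changes and p-values of their own comparisons (edgeR 3.28.1, limma 3.42.2), which were not used.

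Columns were matched to embryos through the labels, and symbols came from GENCODE M21 (54587 of 55335 genes; 748 had none). Genes were kept with filterByExpr (minimum count 10, minimum total 15; 13086 genes), normalized by TMM and tested with edgeR 4.0.16 in R 4.3.3 (quasi-likelihood F test, 1 mean per group, all 13 libraries), with Benjamini-Hochberg adjustment over all genes and calls at ≤0.05. Standard errors and 95% confidence intervals were derived from each log2 fold change and its F statistic. They are symmetric on the log2 scale, a rough form for genes with few counts. Log2 CPM used a prior count of 2. For each of the 8 genes, the difference of mean log2 CPM was tested by exact permutation (20 or 35 divisions of the embryos). Correlations used 100000 permutations. Alternatives were DESeq2 1.42.0, limma 3.58.1 (voom), normalization by RLE or by the upper quartile, other filters, fits of 2 groups, a replicate block and each library left out. The fit was tested on simulated data. Depth was 2048706 to 3674989 counts per library; no molecular identifiers are described, so reads are not independent molecules. Libraries of a group differed by far more than sampling noise (chi-square per degree of freedom 22.5 to 43.7).

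Named genes are the 8 genes, other pathway genes with an unadjusted p-value under 0.05 in either model with values for selected further ones chosen to show roles and depth after their values were seen, and the 3 genes most correlated with *Prdm9* and with *Zcwpw1*. Lists of markers covered oocytes, prophase entry, oocyte growth, proliferation, somatic, erythroid, macrophage and endothelial cells. The genes, lists, motifs and tests were chosen with earlier results of these data known.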

Additional observations from a re-analysis of the deposited data

How the results depend on the processing

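None of the 8 genes was called in any alternative run. The 283 values from other normalizations, tools, filters and fits kept their direction in 278 cases, with a lowest adjusted p of 0.402. The 5 that turned were *Hells* in cKO against flox, a value near 0 (−0.026 by the upper quartile, −0.030 by voom, −0.0010 with a mean of 20 counts or more), and with the replicate block *Rec114* in cKO against flox (0.26) and *Mei4* in the average (0.036). The cause was not tested. Over all genes, the number called (constitutive model, conditional model, their average, their difference, crosses) was 12, 5, 14, 10 and 35 by DESeq2, and 15, 11, 17, 8 and 35 with no filter beyond 1 count. With the replicate block it was 4, 3, 3 and 2 for the first 4 of these. Deviations of same-numbered embryos correlated at −0.0232 to −0.00982 (KO and WT) and 0.00103 to 0.0636 (cKO and flox), over 3 pairs each. Those of other-numbered embryos correlated at 0.00133 to 0.0163 (KO and WT) and −0.0451 to 0.0173 (cKO and flox), over 6 pairs each. In cKO and flox, the same-numbered values 0.0636 and 0.0398 were above every other-numbered value. So few pairs cannot tell whether replicate numbers pair the embryos. With 1 library of the compared groups left out, 375 of 416 values kept their direction and 41 turned. Over all 520 values, which include fits without a library of neither group, the lowest adjusted p was 0.653. The ranges of log2 values that crossed 0 were in KO against WT −0.995 to 0.15 for *Prdm9*, −0.013 to 0.55 for *Spo11*, −0.23 to 0.69 for *Mei1*, −0.89 to 0.17 for *Rec114*, −0.44 to 0.028 for *Ankrd31* and −0.80 to 0.092 for *Zcwpw1*. They were in cKO against flox −0.59 to 0.67 for *Rec114*, −0.22 to 0.49 for *Zcwpw1* and −0.15 to 0.10 for *Hells*. They were in the average of both models −0.31 to 0.011 for *Spo11*, −0.42 to 0.044 for *Mei1*, −1.19 to 0.20 for *Mei4*, −0.56 to 0.15 for *Rec114* and −0.31 to 0.13 for *Zcwpw1*. They were in the difference between the models −0.41 to 1.05 for *Rec114* and −0.43 to 0.12 for *Ankrd31*. They were in the conditional against the constitutive cross −0.21 to 0.17 for *Spo11*, −0.30 to 0.98 for *Mei4* and −0.50 to 0.23 for *Rec114*. Genes called with 1 library left out numbered 0 to 2 in KO against WT (2 without WT replicate 3), 0 to 1 in the average (1 without flox replicate 1), 0 in cKO against flox and in the difference, and 1 to 11 between crosses (11 without WT replicate 3). Depth limited *Rec114* and *Mei4* most, with 5 to 31 and 1 to 150 counts per library. The fit of *Atm* in KO without WT replicate 2 was chosen after seeing the data.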

Other observations

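Beyond the comparisons of genotype, some of the 8 genes varied between embryos together with summed markers. Over the 13 embryos, *Ankrd31* was lower where the sum of 8 oocyte growth genes (1599 to 3227 CPM) was higher (Pearson r = −0.60, permutation p = 0.0315; Spearman rho = −0.66, permutation p = 0.0165), and r was −0.51 without the 2 embryos most extreme in *Ankrd31*. Within the crosses r was −0.65 (constitutive, n = 6) and −0.54 (conditional, n = 7), and rho was −0.54 and −0.46. The sum was carried mostly by *Figla*, *Sohlh1*, *Lhx8* and *Nobox* (medians of 1016, 535, 291 and 237 CPM). *Gdf9*, *Ooep* and *Zp3* had medians of 6.24, 3.25 and 0.692 CPM, with 0 counts in 3, 1 and 5 libraries, and added little to it. For *Zcwpw1* and the same sum r was −0.61 (permutation p = 0.0274; rho = −0.58, permutation p = 0.0440), −0.24 without the 2 extreme embryos, and −0.56 and −0.63 within the crosses, where rho was −0.086 and −0.43. *Zcwpw1* followed the sum of 12 proliferation genes (881 to 1475 CPM) with r = 0.78 (permutation p = 0.00193; rho = 0.62, permutation p = 0.0283), 0.48 without the 2 extreme embryos, and 0.59 and 0.86 within the crosses, where rho was only 0.37 and 0.18. *Hells* was lower where the somatic sum was higher (r = −0.67, permutation p = 0.0126; rho = −0.61, permutation p = 0.0299), with r = −0.71 without the 2 extreme embryos, and −0.60 and −0.42 within the crosses, where rho was −0.54 and −0.25. Adjusted over the 60 relations, p for r was 0.116 for *Zcwpw1* with proliferation and 0.323 for the other 3 relations, so none passed the correction. The relations above are those to marker sums with a permutation p under 0.05 for r. By rho but not by r, p was also under 0.05 for *Mei4* with the somatic sum (rho = 0.60, permutation p = 0.0319, r = 0.52). The same held for *Spo11* with the proliferation sum (rho = 0.62, permutation p = 0.0263, r = 0.45). For both, the adjusted permutation p for rho was 0.273. Each relation shares its libraries and their depth.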
